A study of Mus musculus with 30 samples.

Results

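The G2 and mitosis genes are a set of 45 mouse genes, chosen by symbol, whose products drive a cell from late G2 into mitosis and through the separation of its chromosomes. A member was kept if it had a row in the table of transcript abundance scaled to a fixed sum (TPM) and reached 1 TPM in at least 3 of 30 libraries. By this rule 42 of the 45 were found among 34724 rows, and all 42 reached 1 TPM in every library. Cdc25c, Kif20a and Incenp have no row under these symbols and were not analysed here. The rule used the level over all libraries and no difference between groups, but the members were chosen with earlier results of these data known.

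The cells were Cry2-/- mouse embryonic fibroblasts (MEFs), primary cells that lack the clock repressor CRY2 and that in every group, the controls included, had been made to overexpress the oncogene c-MYC stably. On top of this the groups carried the CRY2 proteins D325H, S510L or F428D, wild-type CRY2 (WT), or an empty vector (EV). Each was plated at 500 cells per well and harvested on day 11 (high density), or plated at 150 cells per well and harvested on day 14 (low density), in 3% oxygen and 15% serum. The 10 groups have 3 biological replicates each, and a replicate combines the cells of 2 wells. How the lines were derived is not stated, and a construct cannot be told apart from the cells that carry it, so the p-values measure the spread between these samples. The series was set up, by its title, around P53 and growth.

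In dividing cells these genes are switched on together. Early in the cycle the DREAM complex (the MuvB core with RB family and E2F members) holds them off through a promoter element called the cell cycle homology region (CHR). Later the MuvB core joins B-MYB and FOXM1 at the same element, with NF-Y at neighbouring CCAAT boxes, and turns them on. p53 lowers many of them through its target p21, the product of Cdkn1a, which inhibits the cyclin-dependent kinases and so favours DREAM. The level of such genes in a bulk culture is widely used as a sign of how many cells are cycling. The share of cells in G2 or mitosis and the amount of this RNA in each such cell cannot be told apart here.

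Both elements were common in the promoters of these genes. Windows from 250 bases before to 50 bases after the annotated start were taken from RefSeq (GRCm38.p6), and 37 of the 45 members had one. The letters TTTGAA (taken here for the CHR, with no other spelling searched), CCAAT (the NF-Y box) and CACGTG (the E-box read by CLOCK-BMAL1 and by MYC-MAX) were searched on both strands, and overlapping matches of different motifs were each counted. TTTGAA was found in 29 of 37 members (78.4%), against 20.2% of all 27025 genes with a window. CCAAT was found in 28 members (75.7%), against 41.1% of all genes, and both together in 24 members (64.9%), against 7.97%. The E-box was found in 2 members, Anln and Ttk (5.41%), against 8.09% of all genes. The 37 members had 40 windows, as 3 of them (Bub3, Ect2 and Prc1) have a second, overlapping window, and a match that lies in both was counted as 1. Of the 37 TTTGAA matches in members, 28 (75.7%) began between 60 bases before and 40 bases after an annotated start of the gene, against 27.1% of the matches in all genes. These matches are descriptions of letters, not of bound sites.

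The windows below are shown for regulators of mitotic entry and exit and for Nusap1 and Hmmr, 2 members described in the results for their level relative to the rest of the set. Capitals mark TTTGAA, and CCAAT or its reverse complement ATTGG. Each is written from 5′ to 3′ on the strand of its gene (GRCm38.p6).
Cdk1, the kinase of mitotic entry, chr10:69352863-69353162, minus strand: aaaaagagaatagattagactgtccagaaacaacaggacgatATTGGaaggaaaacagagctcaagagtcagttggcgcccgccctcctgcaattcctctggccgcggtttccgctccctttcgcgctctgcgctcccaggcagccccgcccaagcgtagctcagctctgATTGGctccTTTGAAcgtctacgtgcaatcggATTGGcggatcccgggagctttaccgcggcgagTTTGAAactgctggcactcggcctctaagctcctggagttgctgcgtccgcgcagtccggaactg
Plk1, polo-like kinase 1, chr7:122159185-122159484, plus strand: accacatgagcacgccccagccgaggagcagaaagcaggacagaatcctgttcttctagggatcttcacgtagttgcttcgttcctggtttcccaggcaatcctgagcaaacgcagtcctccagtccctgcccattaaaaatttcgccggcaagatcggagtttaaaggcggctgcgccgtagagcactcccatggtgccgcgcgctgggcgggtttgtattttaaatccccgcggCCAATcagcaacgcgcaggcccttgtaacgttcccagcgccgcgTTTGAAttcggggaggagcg
Cdc20, activator of the anaphase promoting complex, chr4:118437294-118437593, minus strand: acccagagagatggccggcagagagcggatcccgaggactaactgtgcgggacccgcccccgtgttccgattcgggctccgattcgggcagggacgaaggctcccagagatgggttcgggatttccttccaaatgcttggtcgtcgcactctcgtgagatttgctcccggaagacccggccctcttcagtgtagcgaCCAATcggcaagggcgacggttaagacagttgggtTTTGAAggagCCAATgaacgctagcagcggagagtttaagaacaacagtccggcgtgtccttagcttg
Ccnb1, cyclin B1, chr13:100786437-100786736, minus strand: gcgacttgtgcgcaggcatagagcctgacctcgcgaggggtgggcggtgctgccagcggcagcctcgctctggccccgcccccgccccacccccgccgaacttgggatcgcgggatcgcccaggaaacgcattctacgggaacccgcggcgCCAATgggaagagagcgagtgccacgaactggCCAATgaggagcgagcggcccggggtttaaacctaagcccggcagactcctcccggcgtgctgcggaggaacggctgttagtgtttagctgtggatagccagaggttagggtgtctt
Birc5, survivin, chr11:117848987-117849286, plus strand: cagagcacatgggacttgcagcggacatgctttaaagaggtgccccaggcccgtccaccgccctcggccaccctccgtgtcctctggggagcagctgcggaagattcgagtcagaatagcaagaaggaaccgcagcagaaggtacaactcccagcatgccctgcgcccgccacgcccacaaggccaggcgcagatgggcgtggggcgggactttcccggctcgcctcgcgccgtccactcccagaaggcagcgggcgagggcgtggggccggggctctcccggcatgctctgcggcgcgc
Nusap1, nucleolar and spindle associated protein, chr2:119618048-119618347, plus strand: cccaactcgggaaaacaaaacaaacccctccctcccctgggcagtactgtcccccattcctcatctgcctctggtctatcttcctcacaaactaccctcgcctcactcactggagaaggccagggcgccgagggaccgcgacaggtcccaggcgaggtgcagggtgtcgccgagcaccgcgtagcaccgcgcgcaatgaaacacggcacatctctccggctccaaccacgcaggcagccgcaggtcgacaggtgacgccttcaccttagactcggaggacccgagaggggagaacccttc
Hmmr, a spindle-associated hyaluronan receptor, chr11:40733388-40733687, minus strand: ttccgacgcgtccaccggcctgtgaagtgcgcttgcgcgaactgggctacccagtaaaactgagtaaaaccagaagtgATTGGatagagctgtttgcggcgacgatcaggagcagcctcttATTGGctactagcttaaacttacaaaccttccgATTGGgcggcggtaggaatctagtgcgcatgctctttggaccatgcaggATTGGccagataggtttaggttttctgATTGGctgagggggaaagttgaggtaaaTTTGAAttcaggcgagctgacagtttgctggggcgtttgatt
The Cdk1 window holds 2 TTTGAA matches and 3 CCAAT boxes, the Hmmr window 1 and 5, the Cdc20 window 1 and 2, and the Plk1 window 1 and 1. The Ccnb1 window holds 2 CCAAT boxes and no TTTGAA, and the windows of Birc5 and Nusap1 hold none of the 3 motifs. The table used here has no window for Aurkb.

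Each library held 12182 to 12655 genes at 1 TPM or more. F428D high 2 (15910) and D325H high 3 (16258) had fewer genes above 0 than the median library (19002.5). Read depth is not kept in TPM, so the counting error of a gene is unknown. The fibroblast label was checked against markers: 10 fibroblast genes summed to 7943 to 16718 TPM, whereas none of 6 endothelial and none of 5 skeletal muscle genes reached 1 TPM in any library. The fibroblast sum rested largely on Vim (4706 to 8643 TPM), Col1a1 (529 to 5931 TPM) and Fn1 (1089 to 3892 TPM). Lum (0 to 25.3 TPM), Dcn (0.148 to 9.10 TPM) and Thy1 (0.901 to 8.58 TPM) of the same list were low. Of 5 macrophage genes in the table, Cd68 stood at 1.21 to 6.76 TPM and the other 4 were under 1 TPM in all libraries, with Adgre1 listed at 0. The 6 epithelial genes summed to 1.32 to 92.1 TPM, with Krt18 at up to 89.9 TPM in EV low 1 and Epcam under 1 TPM in all libraries. The 5 neural genes summed to 16.7 to 72.7 TPM. Beside the main comparisons, the epithelial sum was 8.27 to 13.4 TPM in S510L high cells, against 11.4 to 23.7 TPM in WT high cells, and 1.32 to 31.9 TPM in D325H low cells, against 6.97 to 72.4 TPM in WT low cells. The neural sum was 41.5 to 62.5 TPM in S510L high cells, against 40.1 to 57.1 TPM in WT high cells, and 21.9 to 58.3 TPM in D325H low cells, against 53.4 to 59.8 TPM in WT low cells. These epithelial and neural sums overlap, but the fibroblast sums did not. The fibroblast sum was 11806 to 12547 TPM in S510L high cells, against 9982 to 10182 TPM in WT high cells. In D325H low cells it was 13650 to 16718 TPM, against 8973 to 11731 TPM in WT low cells. The neural gene Sox2 stood at 17.8, 22.9 and 16.3 TPM in S510L high cells, against 9.20, 9.21 and 8.49 TPM in WT high cells, also with no overlap. The part of other cell types in the results was not tested. Cry2 itself stood at 49.7 to 161 TPM in D325H cells, 13.2 to 39.5 TPM in S510L cells, 58.5 to 125 TPM in F428D cells and 44.1 to 97.9 TPM in WT cells, against 3.82 to 5.55 TPM in EV cells. The Cry2 transcript was thus lower in S510L cells than in WT cells, with a log2 difference of −1.39 ± 0.34 at high density (adjusted p = 0.0116) and one of −1.80 ± 0.34 at low density (adjusted p = 0.000539). Whether that level plays a part in the S510L results was not tested.

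Mean levels over the 30 libraries ran from 15.1 TPM for Kif20b, 15.6 TPM for Ttk and 16.9 TPM for Kif15 to 130.5 TPM for Bub3, 143 TPM for Cdk1 and 166 TPM for Ube2c, the ubiquitin-conjugating enzyme of the anaphase promoting complex. TPM is scaled by transcript length, so these levels can be set side by side, although the transcript set that gave the lengths is not known. The regulators and markers Ccnb1, Cdk1, Plk1, Cdc20, Aurkb, Birc5, Foxm1, Mki67, Top2a and Ccna2 were followed through the comparisons, by their values or by the range of their differences. The members varied together from library to library. F428D low 1 held the lowest value of 36 of the 42 genes and D325H low 1 that of the other 6. An S510L library held the highest value of 39 of the 42, and S510L high 2 alone that of 29. The ratio of the highest to the lowest library was 5.39 for Ttk and 5.03 for Ndc80, and only 1.57 for Bub3.

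**Figure D1:**
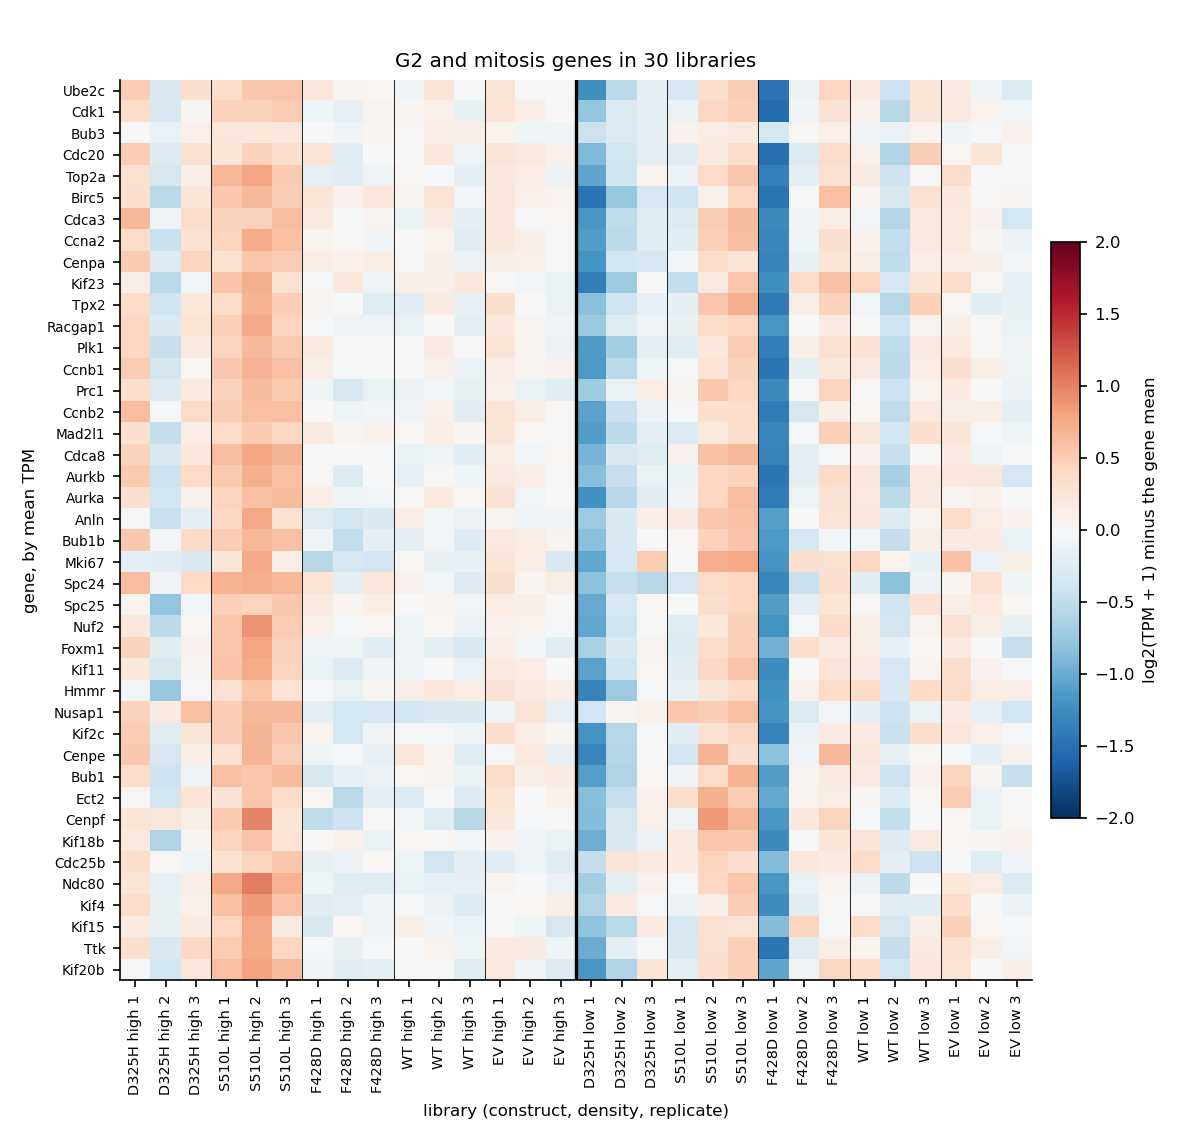
Each cell is a gene's log2(TPM + 1) in 1 library minus that gene's mean over the 30 libraries, with genes in rows by mean TPM and libraries in columns by density, construct and replicate. The S510L high columns are above the gene mean almost throughout, and the columns of F428D low 1 and D325H low 1 are the lowest.

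Summed over the 42 genes, the level was highest in S510L cells at both densities. At high density the sum was 2395 ± 550 TPM in D325H cells, 3187 ± 208 TPM in S510L cells, 2172 ± 94.4 TPM in F428D cells, 2187 ± 142 TPM in WT cells and 2329 ± 185 TPM in EV cells (SD, n = 3). At low density it was 1609 ± 475 TPM in D325H cells, 2663 ± 577 TPM in S510L cells, 1923 ± 925 TPM in F428D cells, 2184 ± 473 TPM in WT cells and 2293 ± 228 TPM in EV cells (SD, n = 3). The 4 other groups at high density differed from each other by less than the largest of their SDs. The spread was uneven: the median member had a within-group SD of 0.81 on the log2 scale in F428D low cells and 0.48 in D325H low cells, but 0.12 in S510L high cells, 0.11 in WT high cells and 0.09 in F428D high cells. In F428D low cells the 3 libraries summed to 913, 2127 and 2730 TPM, the widest spread of any group.

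**Figure D2:**
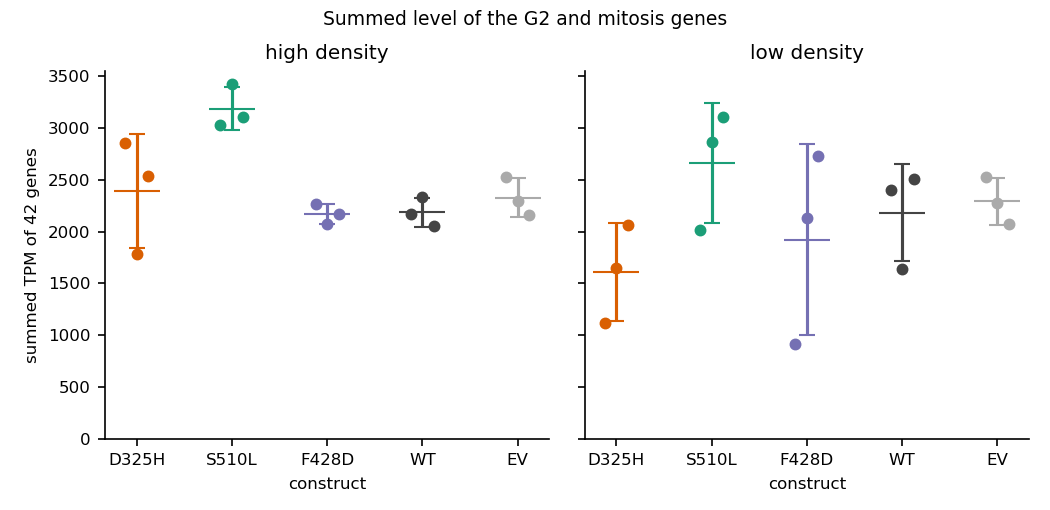
Points are the summed TPM of the 42 genes in each library, by construct and density, and bars give the mean ± SD of 3 libraries. All 3 S510L high libraries lie between 3031 and 3423 TPM, above the other 12 libraries at high density, whereas at low density the libraries of most constructs overlap.

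Differences between groups were taken as log2(TPM + 1) with their standard error (SE) from limma, fitted to all 14093 genes tested over the 30 libraries. A gene was called where its p, adjusted over all those genes by Benjamini and Hochberg, was under 0.05. The scale understates changes of genes with low TPM. The comparisons of D325H, S510L and F428D with WT at a given density share the same 3 WT libraries and hence their error.

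The clearest shift was in S510L cells at high density, where every member was above WT cells. All 42 genes had 3 S510L libraries above 3 WT libraries with no overlap, which was the case for 29.3% of all genes tested. Since the members vary together from library to library, these are not 42 separate results. The median member differed by 0.59 on the log2 scale, against 0.10 for the median of all genes. Of the 42, 5 rose under the test across all genes and none fell (11.9% of members called, against 9.17% of all genes in either direction and 7.39% as higher), so the share called was near that of all genes although the shift was wider. At an unadjusted p under 0.05 there were 21 members, against 24.2% of all genes. Of all genes called, 80.6% were higher in S510L cells, a share that fell to 53.7% under median-ratio scaling and 54.7% under quantile normalization. The members were all still above WT under both, with a median of 0.49 each.

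The 5 members that rose act at the kinetochore, the spindle and the chromosome arms. Nusap1, which bundles spindle microtubules, stood at 35.5, 39.7 and 39.3 TPM in S510L high cells, against 19.1, 20.0 and 19.9 TPM in WT high cells. That is a difference of 0.92 ± 0.20 (log2 ± SE, adjusted p = 0.00491), and it was called under every alternative setting tried. Ndc80, the subunit that names the kinetochore complex which grips microtubule ends, stood at 29.3, 35.4 and 28.2 TPM in S510L high cells, against 15.5, 15.1 and 15.0 TPM in WT high cells. It rose by 0.97 ± 0.24 (adjusted p = 0.0113), and the call was lost without S510L high 2, the library that was highest for most members (adjusted p = 0.0664).

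Cdca8 (borealin), a subunit of the chromosomal passenger complex, stood at 74.9, 84.1 and 77.6 TPM in S510L high cells, against 43.8, 44.9 and 41.2 TPM in WT high cells, a rise of 0.85 ± 0.25 (adjusted p = 0.0320). Kif4, a chromosome-bound kinesin, stood at 25.7, 31.1 and 25.5 TPM in S510L high cells, against 16.5, 15.4 and 13.8 TPM in WT high cells, a rise of 0.80 ± 0.23 (adjusted p = 0.0323). Bub1b (BUBR1), which holds back anaphase in the spindle checkpoint, stood at 58.2, 65.0 and 61.8 TPM in S510L high cells, against 36.0, 39.4 and 34.1 TPM in WT high cells, a rise of 0.74 ± 0.23 (adjusted p = 0.0417). In each of the 3 genes the lowest S510L library was well above the highest WT library. These 3 calls were less firm, since leaving out any 1 of the 6 libraries, either rescaling, or dropping the filter on low genes took each above the threshold (adjusted p up to 0.139). With only those 6 libraries fitted, 36 of the 42 members were called, and 18 were called when D325H low 1, F428D low 1, D325H high 3 and F428D high 2 were left out. The estimate of the spread that all groups share thus bears on the count.

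The other members showed the same direction without passing the test. Among the cyclins and kinases of mitotic entry, Cdk1 stood at 191, 190.1 and 196 TPM in S510L high cells, against 144, 149 and 124 TPM in WT high cells, a difference of 0.47 ± 0.30 (adjusted p = 0.359). Ccnb1, the B-type cyclin that activates CDK1, stood at 91.3, 102 and 94.6 TPM in S510L high cells, against 63.0, 67.2 and 57.7 TPM in WT high cells, a difference of 0.61 ± 0.30 (adjusted p = 0.215). Ccna2 (cyclin A2) averaged 139.6 ± 14.6 TPM in S510L high cells and 88.3 ± 9.05 TPM in WT high cells, and Plk1 averaged 92.3 ± 6.61 TPM in S510L high cells and 65.9 ± 4.46 TPM in WT high cells (SD, n = 3 each). Their differences were 0.65 (adjusted p = 0.184) and 0.48 (adjusted p = 0.375).

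In the chromosomal passenger complex, the kinase Aurkb averaged 71.9 ± 5.12 TPM in S510L high cells and 44.4 ± 3.02 TPM in WT high cells, and Birc5 (survivin) 139 ± 7.62 TPM in S510L high cells and 99.8 ± 11.3 TPM in WT high cells (SD, n = 3 each). The differences were 0.68 (adjusted p = 0.189) and 0.47 (adjusted p = 0.430). Within the NDC80 complex the partners of Ndc80 differed by 0.72 (Nuf2), 0.77 (Spc24) and 0.48 (Spc25), and none of these 3 was called. Foxm1, the transcription factor of the set, averaged 44.9 ± 5.61 TPM in S510L high cells and 25.5 ± 2.16 TPM in WT high cells (SD, n = 3 each), a difference of 0.79 ± 0.26 that just missed the threshold (adjusted p = 0.0561). Top2a, the topoisomerase that untangles sister chromatids, differed by 0.72 (adjusted p = 0.128), and the proliferation marker Mki67 by 0.46 (adjusted p = 0.450). The smallest differences were those of Bub3 (0.13), a checkpoint protein with roles outside mitosis, Hmmr (0.22) and Cdc20 (0.31).

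At low density the S510L members leaned the same way, with 41 of 42 above WT on average and a median of 0.32 against 0.04 for all genes, and 4 of the 42 had libraries wholly above WT (19.6% of all genes did). Only Nusap1 rose (2.38% of members, against 15% of all genes called as higher). Its level was 36.5, 35.3 and 38.3 TPM in S510L low cells, against 21.6, 18.3 and 22.5 TPM in WT low cells, a difference of 0.79 ± 0.20 (adjusted p = 0.00546) that was called under every setting tried. The median depended on single libraries: it was 0.14 without WT low 2, the WT low library with the lowest sum, and 0.49 without S510L low 1. Without D325H low 1, F428D low 1, D325H high 3 and F428D high 2, none of which is in this comparison, 8 members were called. Of all genes called, 64.3% were higher in S510L cells, against 50.1% under quantile normalization, where the median of the members was 0.27. Ccnb1 stood at 61.1, 76.2 and 87.1 TPM in S510L low cells, against 70.9, 43.5 and 69.2 TPM in WT low cells, and Cdk1 at 126, 184 and 193 TPM in S510L low cells, against 149, 93.6 and 164 TPM in WT low cells. In both genes the lowest S510L library lay within the WT range, and neither was called (adjusted p = 0.506 for Ccnb1 and 0.476 for Cdk1). The 10 genes followed throughout differed by 0.03 (Birc5) to 0.39 (Mki67), and none was called.

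Averaged over both densities, a comparison added after the data had been seen, 13 members rose in S510L cells over WT cells and none fell (31% of members, against 20.6% of all genes called as higher). In order of p they were Nusap1 (0.86, adjusted p = 6.83e-05), Ndc80 (0.75, adjusted p = 0.00161), Cdca8 (0.70, adjusted p = 0.00359), Bub1b (0.62, adjusted p = 0.00521), Cenpf, Kif4, Spc24, Cdc25b, Ect2, Racgap1, Prc1, Anln and Foxm1. Nusap1, Ndc80, Cdca8, Bub1b, Cenpf and Spc24 were called under all 21 alternatives tried. Racgap1, Prc1, Anln and Ect2 build the central spindle and the cleavage furrow of cytokinesis, and Cdc25b is a phosphatase that activates CDK1. Foxm1 rose by 0.49 ± 0.18 (adjusted p = 0.0475), a call lost under 16 of 21 alternatives, 11 of them single libraries left out (adjusted p up to 0.121). Anln and Prc1 each lost the call under 12 alternatives, Racgap1 under 9, and Kif4, Cdc25b and Ect2 under 1 each. Of the regulators followed, Cdk1 (0.40, adjusted p = 0.168), Ccnb1 (0.46, adjusted p = 0.110), Plk1 (0.33, adjusted p = 0.279) and Cdc20 (0.21, adjusted p = 0.521) did not pass. Of all genes called, 70.0% were higher, against 51.3% under quantile normalization and 54.7% under median-ratio scaling.

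**Figure D3:**
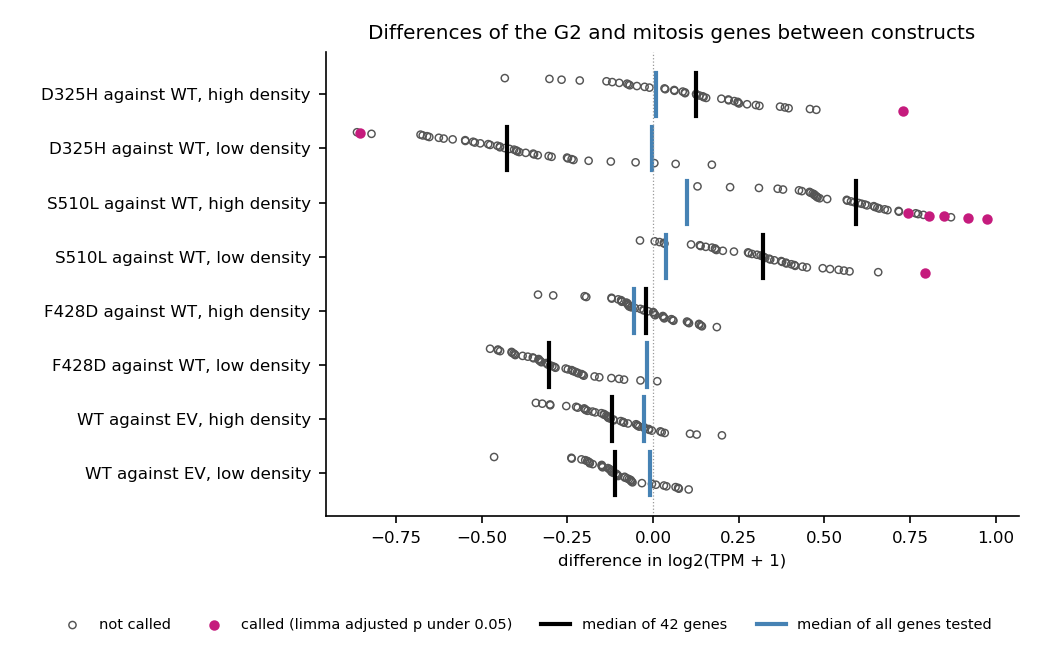
Each point is the difference of a member in log2(TPM + 1), filled where called (limma adjusted p under 0.05), for each construct against its reference and each density. Black bars are the median of the 42 members and blue bars that of all 14093 genes. The members lie to the right of zero for S510L at both densities and to the left for D325H at low density, and few points are filled.

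In D325H cells at high density 29 of 42 members were above WT on average, with a median of 0.13 against 0.01 for all genes. Nusap1 alone rose (2.38% of members, against 5.46% of all genes called as higher), and no member fell, where 4.73% of all genes did. It stood at 34.4, 28.2 and 38.0 TPM in D325H high cells, against 19.1, 20.0 and 19.9 TPM in WT high cells, so that every D325H library was above every WT library, by 0.73 ± 0.20 (adjusted p = 0.0219). The call was lost without D325H high 1, without D325H high 3 or without any of the 3 WT libraries (adjusted p up to 0.0776). The 3 D325H libraries spread widely for the rest, as Ccnb1 shows with 89.2, 48.4 and 64.5 TPM in D325H high cells, against 63.0, 67.2 and 57.7 TPM in WT high cells. The 10 genes followed throughout differed by −0.14 (Mki67) to 0.30 (Foxm1), and none was called. The sign of the median turned to −0.02 without D325H high 1.

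At low density 39 of 42 members were below WT on average in D325H cells, with a median of −0.43 against 0.00 for all genes. Only Hmmr fell (2.38% of members, against 14.1% of all genes called as lower and 29% called in either direction), and 8 members had an unadjusted p under 0.05, against 39.9% of all genes. Hmmr, which helps to position the spindle, stood at 10.1, 15.9 and 26.2 TPM in D325H low cells, against 35.7, 21.4 and 35.9 TPM in WT low cells, a difference of −0.86 ± 0.31 (adjusted p = 0.0404). One D325H library, at 26.2 TPM, lay above the lowest WT library at 21.4 TPM. The call was lost without D325H low 1, D325H low 2, WT low 1 or WT low 3 (adjusted p up to 0.261), and with no filter on low genes.

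Birc5 had the lowest difference, with 33.3, 55.2 and 73.6 TPM in D325H low cells, against 96.8, 74.5 and 116 TPM in WT low cells, and no overlap, but −0.86 ± 0.34 did not pass (adjusted p = 0.0601). Ccnb1 stood at 27.6, 43.0 and 58.9 TPM in D325H low cells, against 70.9, 43.5 and 69.2 TPM in WT low cells (−0.52 ± 0.30, adjusted p = 0.197). Cdk1 stood at 79.9, 114 and 121 TPM in D325H low cells, against 149, 93.6 and 164 TPM in WT low cells (−0.35 ± 0.30, adjusted p = 0.406). Both sets of libraries overlapped. Plk1 differed by −0.65, Cdc20 by −0.48, Aurkb by −0.40, Ccna2 by −0.55, Top2a by −0.39, Mki67 by −0.40 and Foxm1 by −0.30, none of them called. The libraries decide these values: the median was −0.19 without D325H low 1 and −0.66 without D325H low 3, and the number of members called was 11 without D325H low 3, 8 without WT low 2 and 0 without any other of the 6.

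Averaged over both densities, in the comparison added later, D325H cells had 1 member that rose and 2 that fell relative to WT cells (7.14% of members, against 37.3% of all genes). Nusap1 rose by 0.45 ± 0.14 (adjusted p = 0.0138) and was called under every setting tried. Hmmr fell by 0.64 (adjusted p = 0.0232), a call lost on leaving out D325H high 2, D325H low 1, or either of the first and last WT low libraries (adjusted p up to 0.0896). Bub3 fell by 0.17 (adjusted p = 0.0445), with an SE of 0.07, a call lost under 12 of 21 alternatives.

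No member passed the test between F428D and WT cells. At high density 20 members were above and 22 below WT, the median was −0.02, and no member was called, against 0.0639% of all genes. No member had an unadjusted p under 0.05 either, against 5.48% of all genes. Ccnb1 stood at 69.0, 60.8 and 62.0 TPM in F428D high cells, against 63.0, 67.2 and 57.7 TPM in WT high cells, and Cdk1 at 129.7, 122 and 145 TPM in F428D high cells, against 144, 149 and 124 TPM in WT high cells. These values overlap. The sign of the median turned to 0.03 under both rescalings. The smallest adjusted p were those of Anln (−0.29, adjusted p = 0.954), Bub3 (−0.09, adjusted p = 0.965) and Mki67 (−0.34, adjusted p = 0.965). The 10 genes followed throughout lay between −0.34 (Mki67) and 0.10 (Birc5).

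At low density 41 members were below WT on average in F428D cells, with a median of −0.30, but this rests on F428D low 1. Ccnb1 stood at 22.1, 54.8 and 73.0 TPM in F428D low cells, against 70.9, 43.5 and 69.2 TPM in WT low cells, and Plk1 at 23.9, 68.5 and 78.0 TPM in F428D low cells, against 77.5, 43.9 and 71.5 TPM in WT low cells. The first F428D library was the lowest and the third the highest of all 6 for Ccnb1. Without F428D low 1 the median was 0.16 and 39 members were above WT. No member was called, against 0.0142% of all genes, and none had an unadjusted p under 0.05, against 6.46%. The smallest adjusted p was 0.808, reached by Bub1b, Ccnb2 and Cdca8. The 10 genes followed throughout lay between −0.48 (Cdc20) and −0.16 (Foxm1).

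No member passed the test between WT and EV cells, the comparison that asks what adding CRY2 back did to these genes. At low density 35 of 42 members were below EV, with a median of −0.11 against −0.01 for all genes, and at high density 36 were below, with a median of −0.12 against −0.03. No member was called at either density, where limma called 0.305% of all genes at low density and 0.0284% at high density. None had an unadjusted p under 0.05, against 7.29% of all genes at low density and 6.95% at high density. Ccnb1 averaged 62.6 ± 4.78 TPM in WT high cells and 66.8 ± 1.68 TPM in EV high cells, and 61.2 ± 15.4 TPM in WT low cells and 68.7 ± 10.6 TPM in EV low cells (SD, n = 3 each). Nusap1, with the smallest adjusted p at high density, stood at 19.1, 20.0 and 19.9 TPM in WT high cells, against 23.5, 29.7 and 22.0 TPM in EV high cells (−0.32 ± 0.20, adjusted p = 0.779). It was followed by Bub3 (0.13, adjusted p = 0.832) and Bub1b (−0.30, adjusted p = 0.841). At low density the smallest adjusted p were those of Spc24 (−0.46 ± 0.28, adjusted p = 0.811), Kif4 (−0.24, adjusted p = 0.959) and Ndc80 (−0.24, adjusted p = 0.96). The 10 genes followed throughout lay between −0.17 (Aurkb) and −0.01 (Plk1) at high density and between −0.19 (Top2a) and 0.10 (Foxm1) at low density. At high density 9 members lay wholly below EV and 1 above, against 17.2% and 10.9% of all genes. The low density median changed sign, to 0.09, without WT low 2.

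Set against the other changed proteins, S510L cells stood higher in most members. These comparisons average both densities and were added after the data had been seen. Over D325H cells 27 members rose and none fell (64.3% of members, against 16.9% of all genes called as higher), with a median of 0.62 against 0.07 for all genes. Over F428D cells 30 rose and none fell (71.4% of members, against 25.5% of all genes), with a median of 0.62 against 0.11. Both comparisons share the S510L libraries. Over D325H cells the smallest adjusted p was that of Bub3 (0.33, adjusted p = 0.00144), followed by Cdca8 (0.75, adjusted p = 0.00390) and the cleavage furrow protein Anln (0.72, adjusted p = 0.00470). Ccnb1 (0.69, adjusted p = 0.0227), Plk1 (0.66, adjusted p = 0.0338), Ccna2 (0.71, adjusted p = 0.0194), Top2a, Mki67 and Birc5 were also higher in S510L than in D325H cells, whereas Cdk1, Aurkb, Foxm1 and Cdc20 did not pass. Over F428D cells the smallest adjusted p were those of Nusap1 (0.97, adjusted p = 1.73e-05), Bub1b (0.85, adjusted p = 0.000302) and Ndc80 (0.86, adjusted p = 0.000413). Of the 10 genes followed throughout, 7 were higher in S510L than in F428D cells, all but Birc5, Cdc20 and Plk1.

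These counts depend on scaling and on single libraries, though the direction of all 42 members did not. Over D325H cells the count ran from 8, without D325H low 1, to 40 as single libraries were left out, with 9 without D325H high 2, 11 without S510L low 3 or S510L high 2, 16 without S510L low 2 and 17 without S510L high 1. Over F428D cells it ran from 16, without F428D low 1, to 40, with 18 without S510L low 3. Under median-ratio scaling it was 12 over D325H and 15 over F428D, and the share of all called genes that were higher moved from 73.6% to 45.7% and from 76.1% to 55.1%. Of the members, every one was still higher on average in S510L cells under that scaling, with medians of 0.52 over D325H and 0.50 over F428D. In an F test for any difference among the 5 constructs 24 of 42 members were called (57.1%, against 52.4% of all genes), a share close to the background. In an F test of whether the construct effect differed between densities no member was called (smallest adjusted p = 0.737, Cenpa) and none had an unadjusted p under 0.05, while limma called 0.071% of all genes and 7.68% had an unadjusted p under 0.05.

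Averaged over the 5 constructs, high density went with slightly higher members, but plating density and day of harvest cannot be told apart. The median difference was 0.52 in D325H, 0.30 in S510L and 0.29 in F428D cells, against 0.01 in WT and 0.03 in EV cells. The F428D median changed sign without F428D low 1. Over the mean of the 5 constructs 40 of 42 members were higher at high density, with a median of 0.22 while the median of all genes was −0.06. Of the members 2 rose and none fell (4.76%, against 3.48% of all genes called as higher and 16.6% as lower). The 2 were Spc24 (0.49 ± 0.13, adjusted p = 0.00889), a subunit that anchors the NDC80 complex to the kinetochore, and the B-type cyclin Ccnb2 (0.37 ± 0.12, adjusted p = 0.0322). Spc24 was called under every alternative tried. The Ccnb2 call was lost without EV low 3, WT low 2, D325H low 1, S510L low 1, EV high 1, WT high 2 or D325H high 1. Without F428D low 3 the count was 21, without D325H low 3 or D325H high 2 it was 8, without WT low 3 it was 6, without S510L low 3 or F428D low 2 it was 4, and it was 8 under either rescaling. Only 17.3% of all called genes were higher at high density, against 48.8% under quantile normalization and 41.9% under median-ratio scaling.

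Spc24 stood at 52.6, 32.2 and 45.1 TPM in D325H high cells, against 18.8, 24.2 and 22.9 TPM in D325H low cells. In S510L cells it stood at 55.3, 56.8 and 54.4 TPM at high density, against 26.8, 44.4 and 46.2 TPM at low density. In WT cells it stood at 35.9, 32.7 and 28.0 TPM at high density, against 29.2, 18.8 and 31.2 TPM at low density. In EV cells it stood at 42.5, 35.3 and 37.6 TPM at high density, against 35.2, 41.4 and 31.9 TPM at low density. In F428D cells it stood at 41.3, 29.8 and 39.7 TPM at high density, against 12.9, 24.6 and 43.1 TPM at low density. The high and low libraries were apart in D325H and S510L cells and overlapped in WT, EV and F428D cells.

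Over the mean of the constructs the 10 genes followed throughout lay between −0.14 (Mki67) and 0.40 (Birc5), and none was called. Within single constructs no member passed. The median was 0.52 in D325H cells, with all 42 positive and a smallest adjusted p of 0.0589 (Spc24), 0.30 in S510L cells, 0.29 in F428D cells, 0.01 in WT cells and 0.03 in EV cells. At an unadjusted p under 0.05 there were 17 members in D325H cells (23% of all genes), 2 in S510L cells (16.8%), 1 in F428D cells (18.4%), 0 in WT cells (4.78%) and 0 in EV cells (6.95%). Of all genes limma called 4.11% in D325H cells, 1.04% in S510L cells, 1.04% in F428D cells, 0% in WT cells and 0.0781% in EV cells. In D325H cells 7 members were called without D325H low 3 and 6 without D325H high 2. The F428D median turned to −0.14 without F428D low 1, and 3 members were called without F428D low 3. Mki67 and Anln were the 2 members with a lower mean at high density over the 5 constructs. Mki67 averaged 51.4 ± 12.9 TPM in S510L high cells and 57.0 ± 15.7 TPM in S510L low cells, and 28.8 ± 2.29 TPM in F428D high cells and 38.1 ± 18.6 TPM in F428D low cells (SD, n = 3 each), with a difference over the 5 constructs of −0.14 ± 0.15 (adjusted p = 0.550).

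Beneath the shared movement a few members changed their level relative to the set. For this description, added after the data had been seen, each gene's log2(TPM + 1) was taken minus the mean of the other 41 in the same library, with the mean of the 6 WT libraries set to 0. Nusap1 lay at 0.62 ± 0.19 in D325H cells, 0.42 ± 0.25 in S510L cells, 0.05 ± 0.13 in F428D cells and 0.12 ± 0.18 in EV cells (SD, n = 6 each). Hmmr lay at −0.50 ± 0.18 in D325H cells, −0.34 ± 0.06 in S510L cells, −0.15 ± 0.07 in F428D cells and −0.06 ± 0.04 in EV cells (SD, n = 6 each). Mad2l1, the checkpoint protein that binds CDC20, lay at −0.23 ± 0.08 in D325H cells, −0.26 ± 0.05 in S510L cells, 0.00 ± 0.13 in F428D cells and −0.11 ± 0.05 in EV cells (SD, n = 6 each).

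For Nusap1, Hmmr and Mad2l1 all 6 D325H and all 6 S510L libraries lay outside the range of the 6 WT libraries. Of the 42 members this was also so for Bub1b and Prc1 in D325H cells, both higher, and for Cdca8 and Ndc80 in S510L cells, both higher. In D325H cells 3 of 42 members were thus wholly above WT and 2 wholly below. Over all 14093 genes, with the mean of the members taken off in the same way, 1.38% were above and 2.27% below. In S510L cells 3 members were wholly above WT and 2 wholly below, against 0.816% of all genes above and 13.1% below. Since the members stood higher in S510L cells, other genes lie lower by this measure there. No member was apart from WT in F428D cells (0.0142% of all genes were), and none separated S510L from D325H cells (4.64% of all genes did). When the 12 D325H and S510L libraries were set against all 18 others, no member was apart, Nusap1, Hmmr and Mad2l1 included (0.447% of all genes were). Ccnb1 stayed near the mean of the set, at −0.08 ± 0.13 in D325H cells, 0.01 ± 0.08 in S510L cells, −0.04 ± 0.15 in F428D cells and 0.04 ± 0.08 in EV cells (SD, n = 6 each).

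**Figure D4:**
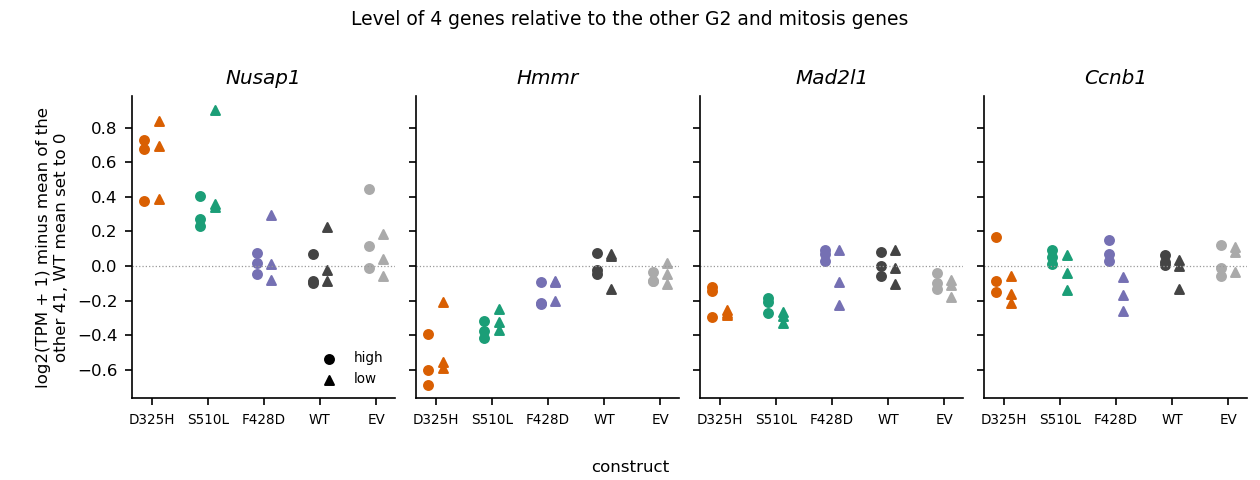
Points are single libraries (circles high density, triangles low density) and the vertical axis is a gene's log2(TPM + 1) minus the mean of the other 41 members, with the WT mean at 0. Nusap1 lies above and Hmmr and Mad2l1 below the WT libraries in all D325H and S510L libraries, whereas Ccnb1 scatters around 0.

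How closely the members moved together was described by correlating them after the mean of each group had been removed. Over the 861 pairs of members and 30 libraries the median r was 0.90 and the lowest 0.52. The points share their library and the scaling of TPM to a fixed sum, and 2 libraries carry much of it: without F428D low 1 and D325H low 1 the median was 0.80 and the lowest −0.22. For comparison, the median r of all genes tested with the mean of the members was −0.06. The loosest members were Cdc25b (r = 0.73 with the mean of the others), Mki67 (0.81) and Bub3 (0.83).

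Trp53 and Cdkn1a, named beside the members because of their known place upstream, were below every WT library in all D325H low and S510L high libraries. Trp53 stood at 15.4, 17.7 and 131 TPM in D325H low cells, against 272, 240.4 and 330.1 TPM in WT low cells (−3.02 ± 0.52, adjusted p = 0.000287), and at 111, 86.9 and 73.2 TPM in S510L high cells, against 253, 279 and 266 TPM in WT high cells (−1.57 ± 0.52, adjusted p = 0.0605). Cdkn1a stood at 27.3, 21.0 and 284 TPM in D325H low cells, against 597, 548 and 597 TPM in WT low cells (−3.37 ± 0.58, adjusted p = 0.000294), and at 198, 167 and 113 TPM in S510L high cells, against 486, 482 and 554 TPM in WT high cells (−1.70 ± 0.58, adjusted p = 0.0685). The S510L high differences of both genes did not pass the test, whereas those at low density did (Trp53 −2.52, adjusted p = 0.00125, and Cdkn1a −2.56, adjusted p = 0.00286), as did those over both densities (adjusted p = 0.000205 for Trp53 and 0.000415 for Cdkn1a). In D325H high cells both fell too (Trp53 −2.07, adjusted p = 0.0150, and Cdkn1a −2.36, adjusted p = 0.0135). The members were above WT in S510L high cells and mostly below WT in D325H low cells. In F428D low 1, the library with the lowest members, Cdkn1a stood at 614 TPM, against 615 and 534 TPM in the other libraries of that group, and Trp53 at 214 TPM, the lowest of the group, against 278 and 326 TPM. D325H low 1 and D325H low 2 had the lowest Cdkn1a of all libraries, at 27.3 and 21.0 TPM, and summed members of 1113 and 1653 TPM. The part of p53 and p21 in the levels of these genes was not tested.

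**Figure D5:**
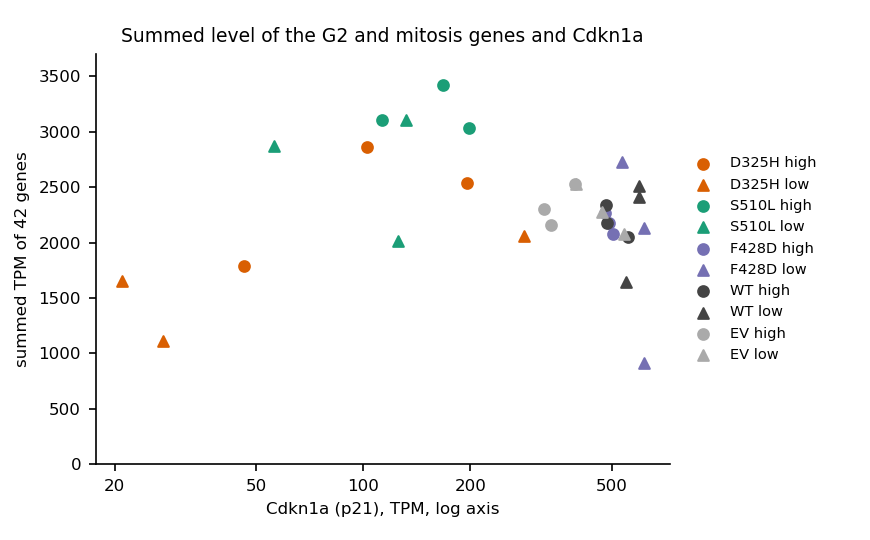
Each point is a library, with Cdkn1a TPM on a log axis and the summed TPM of the 42 members on the vertical axis (circles high density, triangles low density). The S510L and D325H libraries all lie below 300 TPM of Cdkn1a, and their summed members run from 1113 to 3423 TPM. The libraries with Cdkn1a above 300 TPM run from 913 to 2730 TPM.

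The medians leaned the same way in 101 further mitosis genes that are not members, chosen as 4 lists of centromere, chromosome structure, spindle, and kinase and anaphase promoting complex genes. In S510L high cells 96 of 101 were above WT cells, with a median of 0.47. Of these genes 16 rose (15.8%, against 7.39% of all genes) and 1 fell (0.99%, against 1.78%). In S510L low cells the median was 0.25, and 13 rose (12.9%, against 15% of all genes) and 4 fell (3.96%, against 8.3%), so the share called was under that of all genes. In D325H high cells the median was 0.06, and 5 rose (4.95%, against 5.46%) and 3 fell (2.97%, against 4.73%). In D325H low cells the median was −0.22, and 4 rose (3.96%, against 14.8%) and 12 fell (11.9%, against 14.1%), again no more than the share of all genes. In F428D cells and in WT against EV cells none was called at either density, and medians lay between −0.20 and −0.04. Among the called genes were 3 spindle genes that fell in D325H cells at both densities: Psrc1 (−2.78 at low and −1.86 at high density), Gtse1 (−2.33 and −1.57) and Ckap2 (−1.36 and −1.05), each with adjusted p of at most 0.0247. These were 11.5% of the 26 spindle genes tested. Of all genes, 14.1% were called lower in D325H cells at low density and 4.73% at high density. Psrc1 also fell in S510L cells, by −1.89 at low density (adjusted p = 0.00312) and −1.74 over both densities (adjusted p = 0.000173). Of the spindle list 3 genes were lower in S510L low cells (11.5%, against 8.3% of all genes). Psrc1 and Gtse1 are known p53 targets. The condensin II subunit Ncaph2 rose in D325H cells (0.43 at low density, adjusted p = 0.000312) and in S510L cells (0.80, adjusted p = 2.18e-07), and the cohesin subunit Rad21 rose in S510L cells (0.53, adjusted p = 0.000188).

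Members with and without TTTGAA in the promoter window had similar median differences. In S510L cells against WT cells at high density the median was 0.57 for the 29 with these letters and 0.60 for the 8 without them, and in D325H cells against WT cells at low density it was −0.41 for those with them and −0.51 for those without them. Since only this exact spelling was searched, the split cannot show whether the CHR itself makes a difference. Of the members that lay apart from WT relative to the set, Nusap1 (higher) and Mad2l1 (lower) have no match of any of the 3 motifs, while Hmmr (lower) and Ndc80, Cdca8, Bub1b and Prc1 (higher) hold TTTGAA, so members with and without these letters are found on both sides.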

How the data were processed

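RNA from 30 libraries was read as single-end 50-base reads, per the labels' protocols. The authors deposited 1 table of TPM, made with kallisto (version not given in the sources used here), and the build listed is GRCh37.p13, both per the submitters' processing notes. That build is human, whereas the symbols are mouse, so the transcript set behind the values is not known. The Cry2 row was higher in WT than in EV cells, by 3.71 at low and 3.74 at high density (log2), so introduced CRY2 is counted there at least in part. How fully it is counted is likewise not known. Depth per library is unknown, and precision rests on the replicates.

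TPM was used as log2(TPM + 1), a pseudocount of 1, for 14093 genes with at least 1 TPM in at least 3 libraries. The 10 groups were fitted jointly in limma 3.58.1 (R 4.3.3), moderated by empirical Bayes with a trend, so all 30 libraries share the estimate of the spread. Adjusted p-values are Benjamini-Hochberg over all genes tested in a comparison, called under 0.05. The code was tested on simulated data. Columns are headed by the number at the start of each sample's title, which matched them to samples. Promoter sequences are from RefSeq (GRCm38.p6).

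The members and lists were chosen with earlier results of these data known. Ccnb1, Cdk1, Plk1, Cdc20, Aurkb, Birc5, Foxm1, Mki67, Top2a and Ccna2 were followed, by single values or by the range of their differences, with Trp53 and Cdkn1a beside the members. Further members were named where called (the 6 smallest p in each direction), as the smallest p where none was called, or for the highest and lowest mean TPM. Of the other lists (centromere and kinetochore, chromosome structure and cohesion, spindle with motors and cytokinesis, kinases with cyclins and the anaphase promoting complex, regulators, S phase) counts, medians and at most 3 called genes per comparison were used. Alternatives were other pseudocounts, no filter, a mean of at least 5 TPM, quantile normalization, median-ratio scaling, a replicate block, only the groups compared, and leaving out libraries.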

Additional observations from a re-analysis of the deposited data

How the results depend on the processing

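Of 1957 alternative values for the 89 named gene and comparison pairs that were called, 1549 kept the call, 408 lost it and 0 changed direction, and 33 pairs kept it throughout. Counts below are members called. D325H against WT at low density (1 as reported) gave 0 with no filter, without D325H low 1, F428D low 1, D325H high 3 and F428D high 2 (below, without 4 libraries), or with only the groups compared, 2 at a mean of at least 5 TPM, 3 with the replicate block, and 0 to 11 as single libraries were left out. D325H against WT at high density gave 0 to 1 on leaving out a library. S510L against WT at low density (1) gave 8 without 4 libraries. S510L against WT at high density (5) gave 2 with no filter, 2 under quantile normalization, 2 under median-ratio scaling, 18 without 4 libraries, 36 with only the groups compared, and 1 to 2 on leaving out a library. High against low density gave 1 at a mean of at least 5 TPM in D325H cells (0 as reported), and leaving out a library 0 to 7 in D325H and 0 to 3 in F428D cells; over the mean of constructs (2) it gave 4 with a pseudocount of 5, 1 with no filter, 4 at a mean of at least 5 TPM, 8 under either rescaling, 5 with the replicate block, 1 without 4 libraries, and 1 to 21 on leaving out a library. D325H against WT over both densities (3) gave 1 to 4 on leaving out a library. S510L against WT over both densities (13) gave 6 under quantile normalization, 31 without 4 libraries, 28 with only the groups compared, and 9 to 18 on leaving out a library. S510L against D325H (27) gave 17 with no filter, 13 under quantile normalization, 12 under median-ratio scaling, and 8 to 40 on leaving out a library. S510L against F428D (30) gave 12 under quantile normalization, 15 under median-ratio scaling, 16 without 4 libraries, 13 with only the groups compared, and 16 to 40 on leaving out a library. The F test among constructs (24) gave 9 with no filter, 6 under quantile normalization, 8 under median-ratio scaling, and 9 to 36 on leaving out a library. Rescaling moved the median of all genes, for S510L against F428D to 0.01 under either method, against 0.11 as reported, and for high against low density in F428D cells to 0.00 under quantile normalization, against −0.11. Some of these settings leave fewer libraries or genes. The cause of these changes was not tested.

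Replicate numbers showed no general pairing of the samples: over 135 pairs of same-numbered libraries the correlation of their deviations ran from −0.28 to 0.48, with a median of 0.01, and 8 of 30 libraries were closest to their own number. The summed members did rise from replicate 1 to 3 in low density D325H (1113, 1653 and 2061 TPM), S510L (2011, 2870 and 3107 TPM) and F428D cells (913, 2127 and 2730 TPM). EV low, WT low and all high density groups did not show this order. Beyond the replicate block, a replicate effect shared by these genes was not tested. Without read depth no limit from counting can be given; the spread among 3 replicates, widest in F428D low and D325H low cells, limits what could be called.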

Other observations

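Of 30 S phase genes tested, which act in DNA replication, 3 rose in S510L cells against WT cells at high density (Rfc4, Lig1 and Rfc3; 10%, against 7.39% of all genes), with a median of 0.42 and 28 positive. At low density 1 rose (Rfc4; 3.33%, against 15%), with a median of 0.05 and 16 positive. In D325H cells 1 fell against WT cells at high density (Ccne1, cyclin E1; 3.33%, against 4.73%), with a median of −0.04, and 3 fell at low density (10%, against 14.1%), with a median of −0.40. The shares called were near or under those of all genes. The 3 that fell at low density were Rrm2, the ribonucleotide reductase subunit (−2.16, adjusted p = 0.00277), Ccne1 (−1.05, adjusted p = 0.00528) and the thymidine kinase Tk1 (−0.99, adjusted p = 0.0258). The 2 libraries with the lowest mitosis genes were also the lowest in S phase genes, whose mean log2(TPM + 1) was 4.29 in F428D low 1 and 4.46 in D325H low 1, against 4.87 to 5.79 in the other 28 libraries.

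Of 23 genes of the MuvB, E2F, RB and NF-Y regulators, all tested, 2 rose in S510L cells against WT cells at high density (Tfdp2 and E2f1; 8.7%, against 7.39% of all genes), and 4 rose (17.4%, against 15%) and 3 fell (13%, against 8.3%) at low density, among them E2f1 (0.74, adjusted p = 0.000685) and E2f2 (−1.16, adjusted p = 0.00324). In D325H cells 3 fell at low density (13%, against 14.1%): Tfdp1 (−0.90, adjusted p = 0.00256), the dimer partner of E2F proteins, E2f2 (−1.17, adjusted p = 0.00284) and E2f4 (−0.59, adjusted p = 0.00550), the E2F of DREAM. At high density Mybl1 was the 1 gene of the list that fell in D325H cells (−1.13, adjusted p = 0.00715; 4.35%, against 4.73%). Over the mean of the 5 constructs, 3 S phase genes and 1 regulator gene were called higher at high against low density (10% and 4.35%, against 3.48% of all genes) and none lower (16.6% of all genes).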
